A study of Mus musculus with 8 samples.

Results

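Cytosolic ribosomal proteins are the protein parts of the ribosome that translates messenger RNA in the cytoplasm, and this account sets Rpl26 against all the others in mouse acute myeloid leukaemia. Genes were taken by symbol, as those named Rpl or Rps with a number, Rplp or Rpsa, leaving out pseudogenes (-ps) and Rps6k kinases, with a mean deposited value of at least 100 over 8 libraries. This gave 81 of the 18860 genes in the tables, 49 named for the large subunit and 32 for the small subunit. The limit removed 3 of 84 matching genes, Rpl39l (mean 33.9), Rpl3l (52.5) and Rps4y2 (68.0), and the lowest gene inside it was Rpl22l1 (714.1). All 81 passed the filter on low values used for the tests. By name, 77 are the standard subunits of the mouse ribosome and 4 are their close relatives Rpl22l1, Rpl7l1, Rpl36al and Rps27l.

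Total RNA was sequenced from leukaemia cells of moribund C57BL/6 mice, isolated from the bone marrow. The 4 libraries called 11B3-deleted here have the genotype 11B3fl/p53fl;shNf1;shMll3;Vav1-Cre, with the 11B3 segment of mouse chromosome 11, which holds both Trp53 and Rpl26, floxed on 1 chromosome and Trp53 alone floxed on the other. The 4 libraries called p53-loss-only have the genotype p53fl/fl;shNf1;shMll3;Vav1-Cre, in which both Trp53 copies are floxed and the rest of the segment is left in place. Both groups therefore share the Vav1-Cre recombinase, which acts in blood cells, the loss of Trp53 and the hairpins against Nf1 and Mll3, so neither is a normal control. The labels name 4 lines per genotype without saying whether each is a separate animal, and p-values here cover the spread among these libraries alone. Libraries held 30502718 to 35719495 reads, and 3 reads correspond to deposited values of 3.66 to 4.29. The level of a subunit gene cannot separate less RNA per cell from fewer cells of a type.

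The ribosome is built in the nucleolus from ribosomal RNA and proteins, most of which are needed in equal numbers, and proteins left unassembled are degraded. Rpl26 lies on the large subunit close to the exit of the tunnel through which the new protein chain leaves, where it is modified with the small protein UFM1, and the free protein has been described to bind the RNA of Trp53 and to bind Mdm2, which degrades p53. Ribosomal protein messages carry a pyrimidine tract at their start, called a TOP sequence, through which mTOR signalling controls their translation. Human Diamond-Blackfan anaemia, a failure of red cell formation, is caused by loss of 1 copy of any of several ribosomal protein genes, RPL26 among them.

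The promoter of Rpl26 is shown because it shares letters with other subunit genes that are measured below. RefSeq windows on GRCm38.p6, 250 bases before to 50 after the annotated start, were given for 61 of the 81 genes, in 72 windows. Rpl26 lies at chr11:68901446-68901595 on the + strand over the stretch printed, 120 bases before its start and the first 30 of its transcript, with the matches to TCTCGCGAGA and to CCGGAAG in capitals.
Rpl26: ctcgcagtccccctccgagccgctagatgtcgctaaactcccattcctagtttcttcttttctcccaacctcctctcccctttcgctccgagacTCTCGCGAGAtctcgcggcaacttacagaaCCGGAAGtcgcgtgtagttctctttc
TCTCGCGAGA begins 26 bases before the start and CCGGAAG begins 4 bases after it, counting the start as 0. CTTTCC, a run of pyrimidines, begins 25 bases after the annotated start and runs past the end of the stretch printed. These motifs were chosen on reading the Rpl26 window, the first as the 10-base run equal to its own reverse complement that more windows of subunit genes hold than any other such run in Rpl26, and then searched on both strands in all windows, and none overlaps another in Rpl26. CCGGAAG was in 26 of 72 windows of subunit genes (36.1%) and in 8.86% of all 32851 windows. CTTTCC was in 36 windows (50%) against 26.6% of all. It was counted at any place in a window and on either strand, so this is not a count of TOP sequences. TCTCGCGAGA, which reads the same on both strands, was in 7 windows of 6 genes (9.72%) against 0.466% of all, a share that the choice of this motif favoured. A match is a description of letters and not a bound site. The other 5 genes with TCTCGCGAGA are given with 15 bases on each side, the motif in capitals, at chr17:28328519-28328558 (+) for Rpl10a, chr2:32961643-32961682 (+) for Rpl12, chr7:24884569-24884608 (+) for Rps19, chr17:33824539-33824578 (-) for Rps28 and chr4:86857394-86857433 (-) for Rps6.
Rpl10a: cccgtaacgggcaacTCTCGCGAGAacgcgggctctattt
Rpl12: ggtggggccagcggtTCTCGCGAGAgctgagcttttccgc
Rps19: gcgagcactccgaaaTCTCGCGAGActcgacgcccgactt
Rps28: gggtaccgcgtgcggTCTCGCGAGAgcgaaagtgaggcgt
Rps6: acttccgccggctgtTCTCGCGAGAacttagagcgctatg

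Rpl26 was the subunit gene with the lowest 11B3-deleted level relative to p53-loss-only. Its deposited value, a read count scaled for library size plus 1, was 7612.3, 8081.7, 9189.7 and 6804 in 11B3-deleted replicates 1 to 4. The p53-loss-only replicates 1 to 4 had 14471.1, 16875.9, 16522.2 and 16016. The groups were far apart, with the highest 11B3-deleted library well below the lowest p53-loss-only library. Means were 7922 ± 996.4 and 15970 ± 1061 (SD, n = 4 each). On the log2 scale the difference was -1.02 (SE 0.14, 95% interval -1.34 to -0.69), which puts the 11B3-deleted level at 49.4%. The reads behind these values numbered 7509 to 9480 and 14902 to 18394 per library.

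Across all 14679 genes tested, the difference in Rpl26 did not pass the limma test (unadjusted p = 5.46e-05, limma adjusted p = 0.2). limma called 2 genes lower, 0.0136% of those tested, and none higher, and no subunit gene was called in either direction. On reads recovered from the deposited values, edgeR's quasi-likelihood test gave the same size and no call (edgeR adjusted p = 0.274), with 0.00681% of genes called lower. DESeq2 called Rpl26 lower (log2 difference -1.01, DESeq2 adjusted p = 1.97e-07) and no other subunit gene, where it called 0.402% of 14178 genes lower and 0.0987% higher. The call in Rpl26 thus differed between tools while the size did not.

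Set against the other 80 subunit genes within each library, Rpl26 was also at about the halved level. Its share of the summed value of all 81 genes was 0.469%, 0.4%, 0.6% and 0.479% across 11B3-deleted replicates 1 to 4, against 0.921%, 1.02%, 0.97% and 0.913% across p53-loss-only replicates. On the log2 scale, Rpl26 over the sum of the other 80 was -7.69 ± 0.242 and -6.7 ± 0.076 (SD, n = 4 each), a difference of -0.99, or 50.2% (p = 0.0286 by a two-sided exact permutation test, where 70 arrangements allow no smaller value). The scaling of the library cancels in this ratio. The 11B3-deleted libraries were less alike in it, from -7.96 in replicate 2 to -7.37 in replicate 3, than the p53-loss-only libraries, from -6.76 to -6.6.

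**Figure D1:**
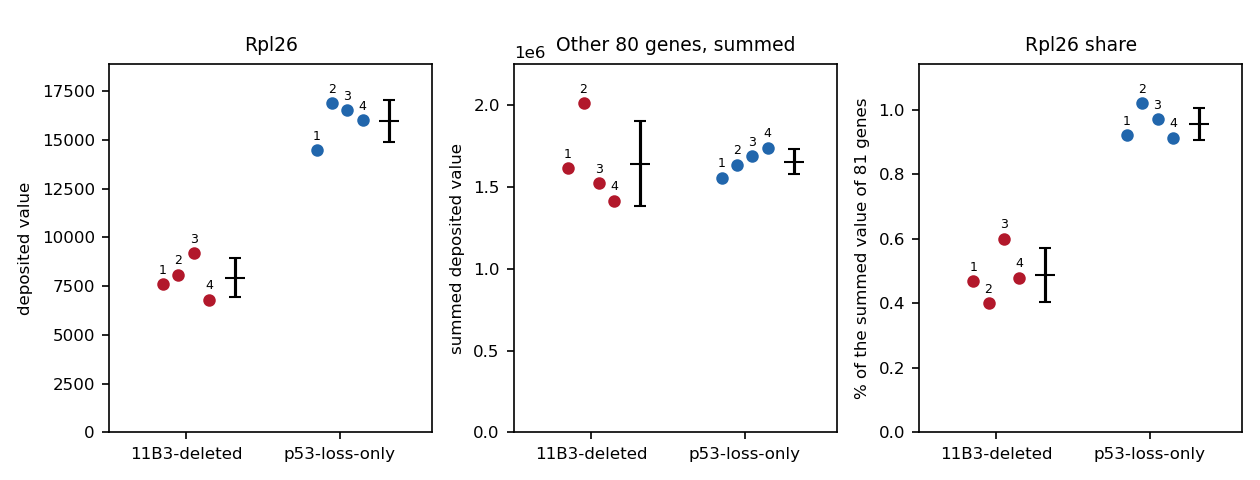
Rpl26 and the other cytosolic ribosomal protein genes in each library. The vertical axes give the deposited value of Rpl26 (left), the summed deposited value of the other 80 genes (middle) and the percent of the summed value of all 81 genes that is Rpl26 (right). Points are libraries with their replicate number, and bars are the mean and SD of 4 libraries. Rpl26 and its share are apart between the groups, from 0.4% to 0.6% against 0.913% to 1.02%, while the sums overlap.

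The other 80 subunit genes together were at nearly the same level in both groups. Their summed deposited value was 1615100, 2010400, 1521800 and 1414900 for 11B3-deleted replicates 1 to 4, against 1556000, 1633800, 1686800 and 1737900 for the p53-loss-only replicates. The 11B3-deleted libraries held both the highest and the lowest sum, replicates 2 and 4, so the groups overlapped. All 81 genes took 5.2% ± 0.685 of reads with the deletion and 5.2% ± 0.345 without it (SD, n = 4 each).

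Gene by gene, the median log2 difference of the other 80 was -0.03, against 0.01 over all genes tested, and single genes ranged from -0.52 (Rpl22l1) to 0.23 (Rps27l). None had an unadjusted limma p under 0.05, where 2.38% of all genes did so with a log2 difference below 0 and 1.18% with one above 0. Here and below, lower and higher count the sign of the log2 difference, which can differ from that of the mean deposited values. In none did the groups stand apart, where 1.23% of all genes stood apart with lower and 0.913% with higher 11B3-deleted values. The log2 difference was within 0.25 of 0 in 78 of the 80 (97.5%), against 55.8% of all genes and 70.4% of genes with a mean value of at least 4000. The 95% interval lay above -1 and below 1 in 79 of the 80, the exception being Rpl22l1 (-1.18 to 0.13). These intervals were wide next to the differences, with a median SE of 0.19, and Rpl26 itself, at -1.02, did not pass the limma test. Small shifts of single subunit genes were therefore not detectable.

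The log2 difference was below 0 in 55 of the 80 and above 0 in 25, a split that rested on the scaling and on single libraries. Scaled to the total reads of each library it was 42 lower and 38 higher. Without 11B3-deleted replicate 2 it was 70 and 10 with a median of -0.15, and without 11B3-deleted replicate 4 it was 35 and 45 with a median of 0.02. The large-subunit genes other than Rpl26 (34 lower and 14 higher of 48, median -0.03) and the small-subunit genes (21 lower and 11 higher of 32, median -0.04) had like medians.

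**Figure D2:**
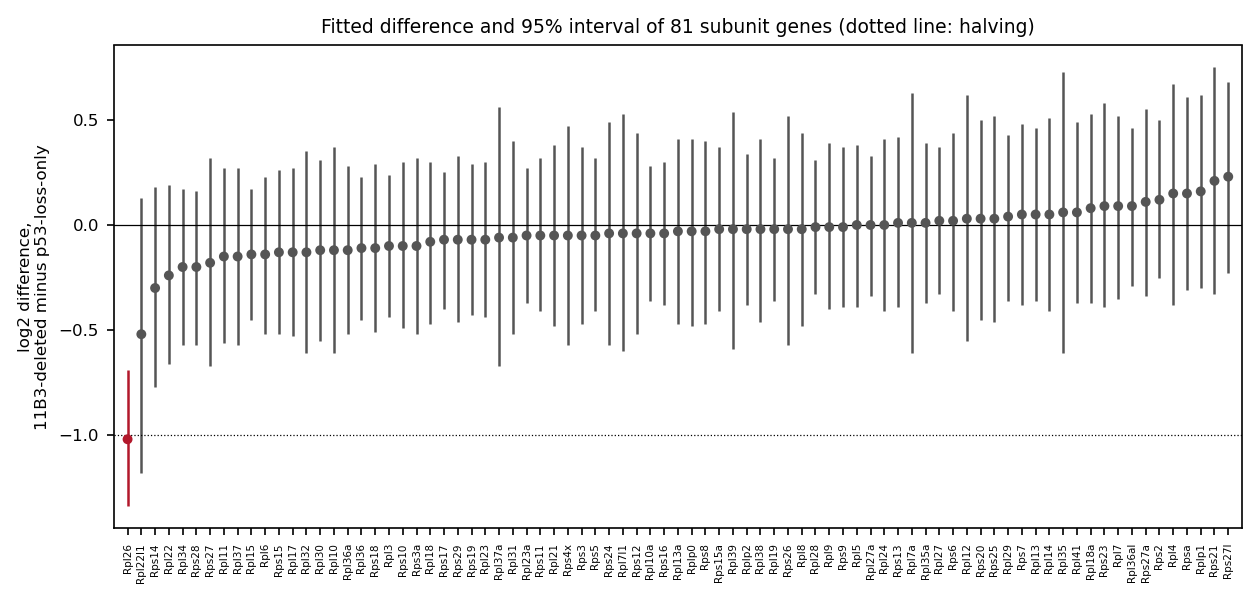
Fitted log2 differences of the 81 subunit genes between 11B3-deleted and p53-loss-only libraries (vertical axis), ordered from lowest to highest. Points are limma estimates and lines their 95% intervals, Rpl26 in red. Rpl26 stands at -1.02, and the next gene, Rpl22l1, at -0.52 with an interval that reaches 0.13.

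Among genes with log2 differences below 0, none of which passed the limma test, Rps14 and Rps28 of the small subunit followed Rpl22l1 in the order of unadjusted p. Rps14, which lines the platform of the small subunit and is the gene haploinsufficient in the human 5q- syndrome, was at 22345.7, 36290.3, 23480.6 and 24360.3 in 11B3-deleted replicates 1 to 4. Its p53-loss-only values were 29688.9, 27988.6, 41190.6 and 31017.2, which differs by -0.30 on the log2 scale (SE 0.21, limma adjusted p = 0.996). Of the 11B3-deleted libraries only replicate 2 reached the p53-loss-only range of Rps14.

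Rps28, 1 of the genes with TCTCGCGAGA at its start, was at 3937.5, 5935.9, 4249.3 and 4133.4 against 4950.3, 4984.4, 5416.7 and 5422.4. The groups overlapped only through 11B3-deleted replicate 2, which was highest of all 8 (log2 difference -0.20, SE 0.16, limma adjusted p = 0.996). Taken over the sum of the other 80 genes in its own library, Rps28 had no overlap, with a log2 difference of -0.18 and a within-group SD of 0.09. Rpl26 (-0.99, SD 0.18) and Rps28 were the 2 of the 81 genes apart on that scale, on which 1.1% of all genes tested were apart and lower and 0.743% apart and higher. For the 80 genes without Rpl26, 1 apart is near that share. The other 4 genes printed with the motif had log2 differences of -0.04 (Rpl10a), 0.03 (Rpl12), -0.07 (Rps19) and 0.02 (Rps6), each with overlapping groups.

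Leaving out 11B3-deleted replicate 2, in which these genes stood high, moved their values. Without it Rps14 was at -0.46 (unadjusted p = 0.0328), Rps28 at -0.34 (0.0223), Rps27 at -0.39 (0.021) and Rpl22l1 at -0.78 (0.00833), and none passed over all genes (limma adjusted p = 0.613 for each). These were the 4 of the 80 genes with an unadjusted limma p under 0.05 in that fit. The share of all genes under 0.05 in that fit is not given here, so the 4 cannot be set against it. Leaving out some other libraries moved these 4 genes towards 0, and leaving out others moved them further from 0. Nearer 0, Rps14 was at -0.18 without p53-loss-only replicate 3 and Rpl22l1 at -0.37 without 11B3-deleted replicate 4. Without 11B3-deleted replicate 1, Rps28 was at -0.14 and Rps27 at -0.11, and Rps27 was at -0.06 without 11B3-deleted replicate 3. Further from 0, Rps14 was at -0.36 without p53-loss-only replicate 2. Without p53-loss-only replicate 1, Rps28 was at -0.23, Rps27 at -0.21 and Rpl22l1 at -0.62. With all libraries Rps27, a zinc-finger protein of the small subunit, was at -0.18 (SE 0.22). The remaining genes with the smallest p among those with log2 differences below 0 were Rpl22 (-0.24), Rpl34 (-0.20), Rpl15 (-0.14), Rpl6 (-0.14), Rpl37 (-0.15) and Rpl11 (-0.15), with SE from 0.14 to 0.19.

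On the other side, 10 genes with log2 differences above 0 were named by the same rule and none passed. Rps21 of the small subunit was at 10708.2, 7206.8, 10626.2 and 6472 against 6074.7, 7785.3, 6183.2 and 10225.1 (log2 difference 0.21, SE 0.24). It was high in 2 libraries of the 11B3-deleted group and in 1 of the p53-loss-only group, so the groups overlapped widely. Rplp1 (0.16), Rpsa (0.15), Rpl4 (0.15), Rps2 (0.12), Rps27a (0.11), Rpl7 (0.09), Rps23 (0.09) and Rpl36al (0.09) had differences below their own SE. Rpsa doubles as the laminin receptor precursor, and Rps27a is made as a fusion with ubiquitin.

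The relatives of standard subunits were described apart because each replaces or resembles a partner gene. Rpl22l1, the paralog of Rpl22 and a gene whose level Rpl22 protein holds down in mouse cells, was at 444.2, 960.9, 594.2 and 411.9 in 11B3-deleted replicates 1 to 4. The p53-loss-only values were 675.9, 822.1, 1001 and 802.9, with overlap through 11B3-deleted replicate 2 (log2 difference -0.52, SE 0.29, unadjusted p = 0.104, limma adjusted p = 0.996). Under limma voom with sample weights, Rpl22l1 was at -0.6 (voom unadjusted p = 0.0465, voom adjusted p = 0.642). It was the only 1 of the 80 genes with an unadjusted p under 0.05 in that fit. The share of all genes under 0.05 with voom is not given here, so this count cannot be set against it. Rpl22 itself was at 18178.9, 18508.3, 20816.1 and 16027.2 against 24172.6, 17588.8, 18326 and 27668.1 (-0.24, SE 0.19), so neither partner was higher in the 11B3-deleted group.

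Rps27l, the paralog of Rps27 and a described target of p53, was at 3701.2, 2255.5, 3011.6 and 2519.8 against 2139.2, 2212.9, 2301.5 and 3115.8. The 11B3-deleted libraries covered the whole p53-loss-only range except its lowest end (log2 difference 0.23, SE 0.20, limma adjusted p = 0.996). Rpl7l1, a relative of Rpl7 that acts in ribosome assembly, differed by -0.04 on the same scale (SE 0.25), and Rpl36al by 0.09 (SE 0.16). Rpl3l, the striated muscle relative of Rpl3 that fell under the level limit, was between 11.7 and 92.7 in the 8 libraries (log2 difference -1.08, SE 0.55, limma adjusted p = 0.996).

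Rpl5 and Rpl11, which with the 5S RNA form the particle that binds Mdm2 when ribosome assembly fails, were at like levels in the groups. Rpl5 was at 13758.1, 17243.8, 14923.9 and 11618.9 against 12571.8, 14507.2, 13453.1 and 16900.9, and its interval ran from -0.39 to 0.38. Rpl11 was at 16003.6, 19921.3, 16613.3 and 11711.2 against 17404.6, 16599.8, 16423.6 and 19732.5, with an interval from -0.56 to 0.27. In both genes 11B3-deleted replicates 2 and 4 were the highest and the lowest library of all 8.

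The P stalk, which recruits elongation factors to the large subunit, consists of Rplp0, Rplp1 and Rplp2. Rplp0 was at 75444.1, 106782, 76175.1 and 67990.7 against 80647.9, 82755.5, 77474.4 and 88601.6 (log2 difference -0.03, SE 0.20). Rplp2 differed by -0.02 and Rplp1 by 0.16, and all 3 had overlapping groups.

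A further 7 proteins ring the tunnel exit with Rpl26 or lie near it, and none stood apart. They were Rpl22 (-0.24), Rpl17 (-0.13), Rpl31 (-0.06), Rpl23a (-0.05), Rpl19 (-0.02), Rpl39 (-0.02) and Rpl35 (0.06), with SE from 0.14 to 0.30. Rpl23a, which with Rpl35 contacts the signal recognition particle, was at 6969.9, 6929.1, 8446.3 and 6466.7 against 6648.6, 7515.5, 7340 and 8261.4. Rpl35 was at 6634, 12918.9, 5868 and 6867 against 6986.5, 7108.2, 11025.4 and 5352.1, high in 1 library of each group. The median over the 7 genes was -0.05, against -1.02 for Rpl26.

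Of the genes of Diamond-Blackfan anaemia, 19 were among the 81, with 15 log2 differences below 0, 4 above 0 and a median of -0.07. Rpl26 was the only 1 of them with an unadjusted p under 0.05. Rps19, the gene most often affected in patients, was at 16613.8, 23293.9, 16888.6 and 17065.7 against 17595.8, 19693.3, 20278.9 and 19413 (log2 difference -0.07, SE 0.16). The others ranged from -0.20 (Rps28) to 0.06 (Rpl35).

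Position on chromosome 11 was then compared. Rpl26 was the only subunit gene inside the 11B3 segment, which holds 91 genes of the tables from Sco1 to Alox12 in the gene order of the GENCODE M21 annotation. The other 6 on chromosome 11 lie outside it and had log2 differences of -0.07 (Rpl23), -0.05 (Rpl23a), -0.02 (Rpl19), -0.02 (Rpl38), 0.02 (Rpl27) and 0.11 (Rps27a). Their median was -0.02 and all 6 had overlapping groups. Rpl27 was at 5441, 6324.3, 5759.4 and 4174.2 against 5212.5, 5485.3, 5322.4 and 5147.7, a spread that includes every p53-loss-only library.

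Inside the segment the other 72 tested genes had a median log2 difference of -0.92, with 70 below 0. The groups were apart in 37 of them, all lower, where 1.23% of all genes were apart and lower. Rpl26 was close to that median. Directly before it among tested genes in gene order, the dynein regulator Ndel1 was at 876.7, 1122.3, 1021.6 and 931.1 against 2263.5, 2080.8, 2251.1 and 1732.5 (log2 difference -1.07, SE 0.16, limma adjusted p = 0.258, DESeq2 adjusted p = 2.38e-07). The PI3K regulatory genes Pik3r5 (-0.82) and Pik3r6 (-1.19) and 1500010J02Rik (current symbol Ctc1, -1.31) were also apart. Groups overlapped in Slc25a35 (-1.14), Pfas (-0.77), Aurkb (-0.70), Mfsd6l (-1.61, SE 0.81), Arhgef15 (-0.08, SE 0.72) and Myh10 (1.84, SE 1.54), the last 3 with far larger errors than Rpl26. Arhgef15 is the tested gene directly after Rpl26 in that order, and its values were low, from 7.6 to 75.8.

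**Figure D3:**
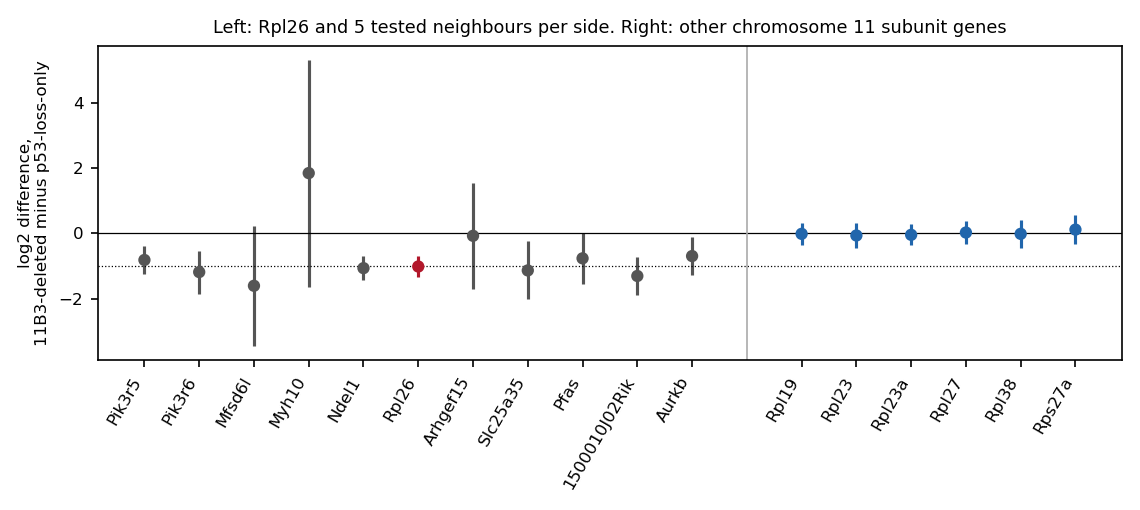
Log2 differences between 11B3-deleted and p53-loss-only libraries (vertical axis) of Rpl26 and the 5 tested genes on each side of it in gene order (left), and of the other 6 subunit genes of chromosome 11 (right). Points are limma estimates and lines 95% intervals. Rpl26 is in red at -1.02, and the 6 genes on the right lie between -0.07 and 0.11.

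Most subunit genes were highest in the same library. Of the 81, 53 were highest in 11B3-deleted replicate 2 and 38 were lowest in 11B3-deleted replicate 4. The median gene stood 0.30 above its mean over 8 libraries (log2) in the first and 0.20 below it (-0.20) in the second, and between -0.14 and 0.11 in the other 6. Rpl26 was among the 38 lowest in replicate 4, at 6804. In replicate 2, where the other 80 had their highest sum, it was at 8081.7. That was below 11B3-deleted replicate 3 (9189.7) and every p53-loss-only library. The libraries also differed in other cells' genes. The summed value of 17 erythroid markers was 226200, 14020, 60830 and 28580 in 11B3-deleted replicates 1 to 4, against 3029 to 54950 in the p53-loss-only group. That of 12 B lineage markers was 59160 in 11B3-deleted replicate 3 and 504.3 to 2576 in the other 7. All 17 and all 12 had log2 differences above 0, each with overlapping groups.

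For 14 granulocyte markers the sum was 784200 in 11B3-deleted replicate 4 and 198000 to 516600 elsewhere, and myeloid identity markers such as Ptprc, Cebpa and Mpo were present in every library. Of 12 monocyte and macrophage markers, 7 had log2 differences below 0 and 5 above 0, from -2.34 (Cx3cr1) to 0.78 (Mrc1). Of the 12, 2 stood apart, both lower, where 1.23% of all genes stood apart and lower. An unadjusted limma p under 0.05 was found for 3 lower and 1 higher, against 2.38% and 1.18% of all genes. DESeq2 called 1 of the 12, where it called 0.402% of genes lower and 0.0987% higher. The summed values of these markers overlapped (42220 to 78860 against 43960 to 133100). Mitochondrial-encoded genes took 1.5% to 2.21% of reads against 1.77% to 3.36%. Their part in the levels of the subunit genes was not tested. Trp53 (-0.45, SE 0.32), Nf1 (-0.17, SE 0.25) and Mll3 (0.02, SE 0.17) did not pass the limma test, and reads outside a deleted or targeted stretch do not check the labels.

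**Figure D4:**
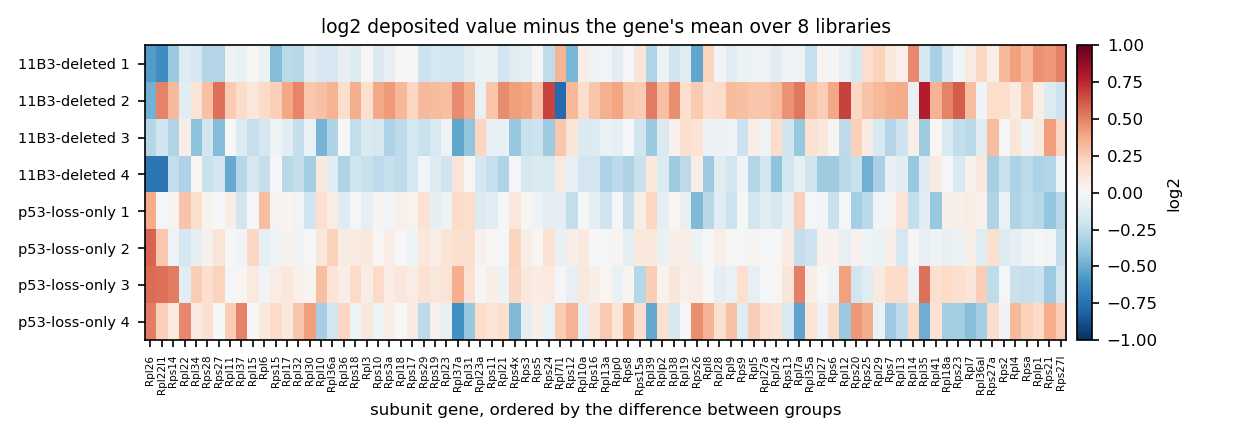
Level of each of the 81 subunit genes (columns, ordered by the difference between groups) in each library (rows), as log2 deposited value minus the gene's mean over 8 libraries. Red is higher and blue lower. Rpl26, the first column, splits by genotype, while most other columns are highest in 11B3-deleted replicate 2 and many are lowest in 11B3-deleted replicate 4.

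Within groups, subunit genes were among the steadier genes. The median within-group SD of the log2 value was 0.24 for the 80 genes, 0.32 for 1858 other genes with a mean of at least 4000 and 0.44 for all 14679. Rpl26 had a within-group SD of 0.15, and 5 of the 80 had a smaller one. Transcripts of subunit genes were short, with a median of 886.5 bases over 80 genes with a length, against 2978 over 12812 tested genes. Small nucleolar RNA genes, which guide chemical changes of ribosomal RNA, lay within 30 of the 81 genes and not within Rpl26.

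Per kilobase of transcript, the deposited value of the median subunit gene was 19100 (median over the 8 libraries for each gene). Highest were the P stalk genes Rplp1 (65930) and Rplp0 (58220) and then Rpl4 (55350). The lowest were Rpl7l1 (1153), Rpl22l1 (1339) and Rps15a (2889), the last with a listed transcript of 5179 bases, long for a subunit gene. Rpl26 was at 12950 in the 11B3-deleted group, rank 59 of 80, and at 26850 in the p53-loss-only group, rank 22 (medians over 4 libraries), against 18460 and 19740 for the median subunit gene. A pseudogene of Rpl26, Rpl26-ps4, was at 1.9 to 4.2 in every library, which is 3 reads or fewer.

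Cytosolic components outside the naming rule include Fau, made as a fusion with a ubiquitin-like protein, and Gnb2l1 (current symbol Rack1). They had log2 differences of 0.03 (SE 0.24) and 0.07 (SE 0.17), with overlapping groups. The 62 tested pseudogene rows had 39 log2 differences below 0, 23 above 0 and a median of -0.07.

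Mitochondrial ribosomal proteins, which belong to the separate ribosome of the mitochondrion, had 16 log2 differences below 0 and 63 above 0 among 79 tested, with a median of 0.16. None passed the limma test. Mrpl33 was at 4605.3, 6450.3, 7300.6 and 6608.7 against 9433.5, 9267.8, 7897 and 8586.2, apart and lower (log2 difference -0.51, SE 0.17, unadjusted p = 0.0148). Mrps31 (0.33) was apart and higher, Mrpl11 had 0.44 and Mrpl32 0.41. Of the 79, 1 apart and lower and 1 apart and higher are near the shares of all genes, 1.23% and 0.913%.

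Factors that build ribosomes, 50 in the list, had 6 log2 differences below 0, 44 above 0 and a median of 0.27, and again none passed. Riok1, a kinase of small-subunit maturation, was apart at 1885.3, 2319, 1430.7 and 1478.7 against 1420.6, 1340.4, 1423.2 and 1020.1 (log2 difference 0.44, SE 0.21). The gap was narrow, 1430.7 against 1423.2, and no gene of the list had an unadjusted limma p under 0.05. Riok1 was the only 1 of the 50 apart, where 0.913% of all genes were apart and higher. Heatr1, a factor of ribosomal RNA synthesis, had 0.48 (SE 0.25) and Nip7 0.43 (SE 0.22), both with overlap. In these lists, 11B3-deleted replicate 1 was the highest library for Heatr1, Mrpl32 and Mrpl11, and it also held the highest sum of erythroid markers, whose part in these values was not tested.

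Genes tied to known roles of Rpl26 were compared next, and none passed the limma test. For the UFM1 pathway, 9 rows, with Ufm1 listed under 2 identifiers, had 5 log2 differences below 0 and 4 above 0. Its leading values were Ufsp1 at 1.07 (SE 0.63), Cdk5rap3, a subunit of the ligase that modifies Rpl26, at -0.26 (SE 0.19), and the less abundant Ufm1 row at -0.53 (SE 0.42). Ufsp1 was at 498.9 in 11B3-deleted replicate 1 and at 82.7 to 134.8 in the rest of that group, against 40.5 to 116.6 in the p53-loss-only group. Of 9 genes of the Mdm2 and nucleolar stress list, 8 had log2 differences above 0, with a median of 0.27. In Ncl, Ccng1, Gnl3, Npm1 and Cdkn2a the highest library was 11B3-deleted replicate 1, but not in Mdm2, Mdm4, Gltscr2 or Cdkn1a. Ncl was at 61941.8 in that library and at 25480.8 to 36820.7 in all the others. The p53 targets Ccng1 (0.34, SE 0.20) and Cdkn1a (-0.56, SE 0.58) went in different directions, Ncl had 0.42 (SE 0.27), and Mdm2 was at 1601.2, 3625.4, 2664.6 and 2928.1 against 1979.9, 2521.1, 3018.6 and 2507.8.

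Other messages with a TOP sequence, among them translation factors, had 6 log2 differences below 0 and 14 above 0 of 20, and a median of 0.05. Btf3 had 0.30 (SE 0.14) and Vim -0.63 (SE 0.39). Of 13 regulators of TOP messages, 9 had log2 differences above 0, led by Larp1, which binds the TOP sequence (0.37, SE 0.22), with Tial1 at 0.12 and Tsc2 at -0.22.

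**Figure D5:**
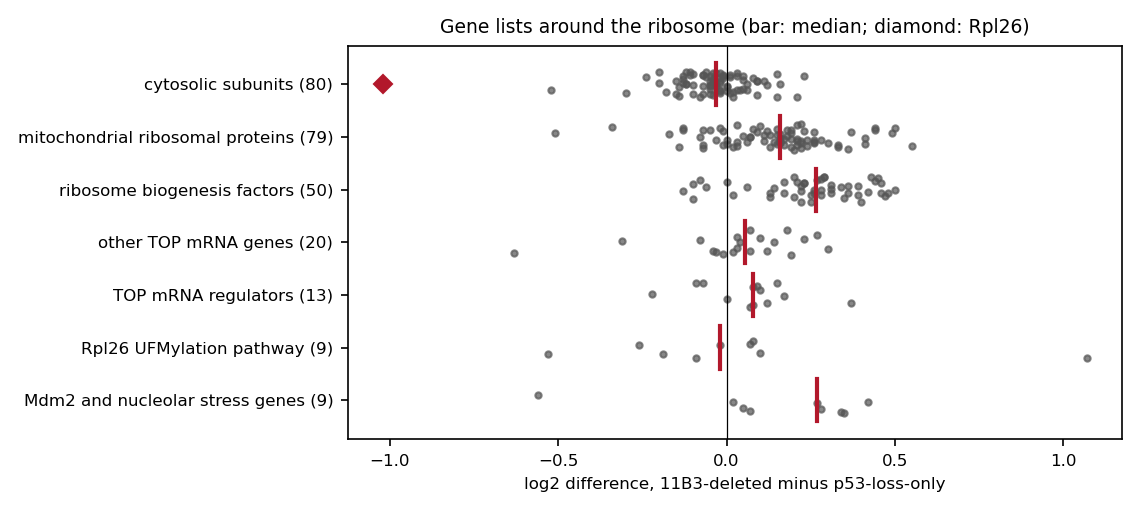
Log2 differences between 11B3-deleted and p53-loss-only libraries (horizontal axis) for genes of 7 lists (rows, number of genes in brackets). Points are genes, bars medians and the red diamond Rpl26. The cytosolic subunits are gathered around -0.03 with Rpl26 alone at -1.02, and the biogenesis list has its median at 0.27.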

How the data were processed

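Each library had 1 deposited table of 18860 genes. STAR, HTSeq, DESeq and the build mm9 are named, with no role or version, per the submitters' processing notes. The deposited signal values are 1 plus whole multiples of a step fixed within a library, so the authors' values behave as read counts divided by a size factor plus 1, and dividing by the step gave whole reads within a tolerance of 0.02. Use of strand and the treatment of reads shared between gene copies, of which ribosomal protein genes have many, were not given in these sources. Titles gave the groups. The main test was limma-trend on the log2 deposited value, two-sided, for the 14679 genes that reached 10 in 4 or more libraries, with Benjamini-Hochberg adjustment at 0.05. Had the files held raw counts, edgeR would have been the main test, and it was run on recovered reads as an alternative. The deposited 1 served as the constant. Rpl26 over the sum of the others was compared by an exact permutation test.

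Subunit genes and lists were chosen with earlier results of these data known. Named genes were Rpl26, the 10 others with the smallest p per direction, the 5S, P stalk, exit and paralog lists, the 3 highest and lowest per kilobase, up to 3 per other list and 5 tested neighbours per side; Rps19, Rps6, Rpl10a, Rpl12, Mdm2 and the markers were added after their values were seen. Some genes that the rule takes are left out of the text. Identifiers were matched to GENCODE M21 for symbols, order and transcript lengths (79 of 81 carry the same symbol; Rps3a is Rps3a1 and the identifier of Rpl24 carries another gene's name, so it has no length). Smallest chi-square per degree of freedom between libraries of a group was 93.2, so each was counted once. Alternatives were edgeR, DESeq2, voom with sample weights, 2 filters, 3 scalings, a constant of 5, a replicate block and each library left out. Software was limma 3.58.1, edgeR 4.0.16 and DESeq2 1.42.0 in R 4.3.3, and scipy 1.17.1 in Python 3.11.15.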

Additional observations from a re-analysis of the deposited data

Results flagged for a closer look

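In 6 of 70 groups of 4 values tested (named genes and 3 summary values), 1 library lay far from the other 3 by Dixon's criterion, which chance meets in about 1 group in 20. In 11B3-deleted replicate 2, Rpl35 was at 12918.9 (other libraries of the group 5868 to 6867), Rps14 at 36290.3 (22345.7 to 24360.3) and Rps28 at 5935.9 (3937.5 to 4249.3), all high. In p53-loss-only replicate 4, Rpl31 was at 5125.3 (others 7395.9 to 7525.4) and Rpl7 at 23981.4 (33546.3 to 34999.7), both low, and Rps27l was at 3115.8 (2139.2 to 2301.5), high. Neither group of Rpl26 was among them.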

How the results depend on the processing

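The log2 difference of Rpl26 was between -1.09 and -0.95 under every alternative, with limma and edgeR adjusted p from 0.186 to 1. DESeq2 alone called it (-1.01, DESeq2 adjusted p = 1.97e-07), which made 1 gene of the 81 past the threshold; the cause was not tested. Rpl26 over the other 80 genes ranged from -1.1 to -0.9 with each library left out (exact permutation p = 0.0571 each, the smallest that 4 against 3 libraries allow). The count tools and filters give no value of this ratio. With the replicate number as a block it was -0.99 (exact permutation p = 0.125, the smallest possible), and limma called no subunit gene. Libraries with the same number did not deviate together (r of -0.03, -0.22, -0.41 and -0.24), so the numbers were not taken to pair them.

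For named genes other than Rpl26, 512 log2 differences kept their sign and 46 changed it, none of them past a threshold in any fit. With voom these were Rpl23a (0.02), Rpl35 (-0.13), Rpl5 (0.02), Rpl7 (-0.05), Rpl7l1 (0.12) and Rps23 (-0.08). Rpl7l1 was at 0.01 with edgeR and 0.02 with DESeq2, and Rpl5 at 0.00 with DESeq2. Scaled to total reads, Rpl5 was at 0.02 (0.01 without mitochondrial-encoded genes), Rplp2 at 0.01, and Rpl19, Rpl39 and Rps15a at 0.00. With each library left out the values ranged from -0.08 to 0.06 for Rpl19, -0.13 to 0.00 for Rpl23a, -0.2 to 0.06 for Rpl31, -0.19 to 0.25 for Rpl35, -0.01 to 0.18 for Rpl36al, -0.2 to 0.1 for Rpl39, -0.09 to 0.09 for Rpl5, -0.04 to 0.19 for Rpl7, -0.16 to 0.22 for Rpl7l1, -0.17 to 0.05 for Rplp0, -0.12 to 0.03 for Rplp2, -0.12 to 0.05 for Rps15a and -0.09 to 0.19 for Rps23.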
